A study of Mus musculus with 13 samples.

Results

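The genes described here encode the core of transforming growth factor beta (TGF-beta) signalling outside the nucleus. They were chosen by symbol from a table of 18748 mouse genes, with 10 members in all: 3 ligands (Tgfb1, Tgfb2, Tgfb3), 3 receptors (Tgfbr1, Tgfbr2, Tgfbr3) and 4 latent TGF-beta binding proteins (Ltbp1, Ltbp2, Ltbp3, Ltbp4). Each of the 10 was found and each had enough counts to be tested, among 14067 tested genes. Messenger RNA came from the cartilage on the mandibular condyle, the jaw side of the temporomandibular joint, of young mice (2 months old, 7 libraries) and aged mice (18 months old, 6 libraries). No genotype, strain or treatment is given in the sources used here, so age is the one stated difference between the groups. The study asks which genes differ between the 2 ages. The labels number the libraries without saying that each came from its own mouse, so p-values measure the spread between these libraries only.

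TGF-beta is secreted in a latent form, wrapped in its own propeptide. LTBP1, LTBP3 and LTBP4 can bind this latent complex covalently and tether it to fibrillin microfibrils in the matrix, while LTBP2, of the same family, does not bind latent TGF-beta but does bind fibrillin. Freed ligand is bound by the type II receptor TGFBR2, which activates the type I receptor TGFBR1, and TGFBR3 (betaglycan) is a co-receptor that presents ligand, TGF-beta 2 above all. In cartilage the pathway is known for supporting matrix production and for holding chondrocytes back from hypertrophy.

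The libraries held 17531694 to 18203443 expected counts in young and 16356839 to 17876681 in aged mice. Every member had between 623 and 23236 counts in each library, so the spread between libraries and not counting error sets the precision. The tissue markers of cartilage were present at both ages. Col2a1, the main cartilage collagen, stood at 25340 ± 5037 CPM (counts normalised for depth by TMM) in the young (SD, n = 7) and at 6836 ± 3143 CPM in the aged group (SD, n = 6). Acan (aggrecan) and Sox9, the chondrocyte transcription factor, were not called (adjusted p = 0.821 and 0.501 by edgeR). Of 8 chondrocyte markers 5 were lower and 1 higher. Markers of other cells moved with age: 11 of 11 erythroid, 8 of 10 neutrophil, 10 of 12 skeletal muscle and 6 of 7 megakaryocyte and platelet markers were called higher in aged libraries, and none lower. Summed erythroid markers ranged from 309.8 to 1254 CPM in young and from 1653 to 11879 CPM in aged libraries, and summed muscle markers from 572.5 to 5168 and from 4222 to 16230 CPM. Osteoblast markers were lower in 5 of 6 cases (summed level 9010 to 11282 CPM in young, 4739 to 8265 CPM in aged libraries). Of 8 fibrous layer and fibroblast markers 2 were lower, 1 higher and 5 not called. Their sum was 104700 to 128074 CPM in young and 31820 to 39164.5 CPM in aged libraries. Most of it was Col1a1, with means of 102993 CPM (young) and 27257 CPM (aged). Mast cell markers, at a low level, were higher in 6 of 6 cases. No marker of these lists was at 0 in all libraries. In bulk tissue, fewer cells of a type and less RNA per cell cannot be told apart.

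Because Ltbp2 moved far more than its relatives, the bases just upstream of its start site are shown beside those of Ltbp3, the LTBP with the highest level in young cartilage. Both come from RefSeq on build GRCm38.p6, which is not the build of the count table (GRCm39). Each run is the 250 bases before the start of the gene, on the gene's own strand. Capitals mark CAGAC, the core of the SMAD-binding element, or GTCTG, the same motif on the other strand.
Ltbp2 (chr12:84876492-84876741, minus strand): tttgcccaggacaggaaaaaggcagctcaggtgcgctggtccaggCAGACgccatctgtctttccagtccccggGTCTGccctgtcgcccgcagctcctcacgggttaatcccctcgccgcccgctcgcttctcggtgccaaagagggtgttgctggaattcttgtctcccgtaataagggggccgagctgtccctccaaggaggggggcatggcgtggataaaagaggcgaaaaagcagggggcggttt
Ltbp3 (chr19:5740650-5740899, plus strand): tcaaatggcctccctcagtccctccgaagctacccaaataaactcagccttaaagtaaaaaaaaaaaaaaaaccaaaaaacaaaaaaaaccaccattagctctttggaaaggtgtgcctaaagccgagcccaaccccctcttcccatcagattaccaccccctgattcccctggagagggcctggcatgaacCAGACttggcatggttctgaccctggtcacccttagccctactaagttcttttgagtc
The Ltbp2 window held 2 matches to CAGAC, and the Ltbp3 window held 1. Over both strands, 42.2% of all 32851 upstream windows of this length hold at least 1 match, so a match is common and marks no site. The Ltbp2 window also held 2 GC boxes (GGGCGG, either strand, present in 32.7% of windows) and the Ltbp3 window held 0. Neither held TGANTCA, the AP-1 letters (6.75% of windows), or TATAAA, the TATA box letters (12.4%). Of the 10 members, 8 matched an entry of this table. Among them, Tgfb2 carried TATAAA at −31 from its start, and the Tgfb1 window held 5 GC boxes and 0 matches to CAGAC.

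Levels are compared between genes per length, in the deposited TPM (transcripts scaled to gene length and depth). In young cartilage Tgfb1 had the highest level of the 10, at 246 ± 10.9 TPM (SD, n = 7), followed by Ltbp3 at 177 ± 12.9 TPM. Tgfb3 and Tgfbr2 came next at 150.2 ± 10.3 and 143 ± 10.6 TPM, and their library ranges overlapped, as did those of Ltbp3 and Tgfb3. Ltbp4, at 102 ± 15.5 TPM, overlapped neither neighbour in this order. Tgfbr1, Ltbp2, Ltbp1 and Tgfb2 formed a run from 67.0 down to 47.0 TPM in which each neighbour overlapped the next, and Tgfbr3 was lowest at 14.9 ± 1.81 TPM. In aged cartilage Ltbp2 had moved from the 7th place to the first, at 294 ± 99.1 TPM (SD, n = 6), beside Tgfb1 at 285 ± 25.9 TPM. These ranges overlapped, and Ltbp2 was above Tgfb1 in 2 of 6 aged libraries. Tgfbr3 was again lowest, at 28.0 ± 3.86 TPM, clear of the next gene, Tgfbr1, at 55.1 ± 9.14 TPM.

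**Figure D1:**
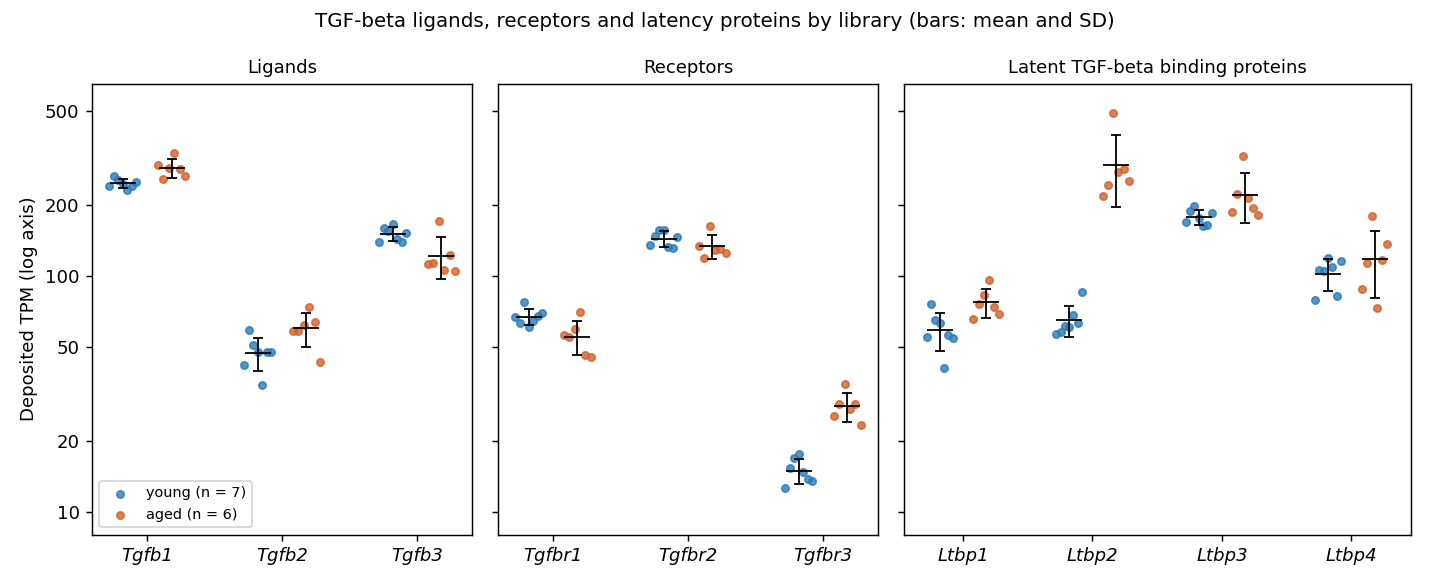
Deposited TPM (log axis) of the 10 members in each young (blue, n = 7) and aged (orange, n = 6) library, with the mean and SD as black bars. The aged libraries lie above all young ones for Ltbp2 and Tgfbr3, and the ages overlap for the other 8 genes.

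In the comparison of ages, 5 of the 10 members were called in edgeR's quasi-likelihood fit (Benjamini-Hochberg adjusted p, over all tested genes, below 0.05): Ltbp2 and Tgfbr3 were higher, and Tgfb3, Tgfbr1 and Tgfbr2 were lower in aged cartilage. Of all tested genes 46.2% were called, so the share of members called is near the background. The members' median log2 fold change was 0.18, against 0.014 over all tested genes. For 2 members the ages had separate ranges, both with the aged libraries above. Of all tested genes 19.2% had separate ranges in either direction, so this count too is near the background. By direction, 8.28% of all tested genes had the aged libraries above and 10.9% below, against 2 and 0 of the 10 members. This split by direction was not tested. The ranges of the 3 lower members overlapped between the ages. Tested differences below are on the TMM-normalised CPM scale, and log2 fold changes are aged minus young.

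Among the ligands, Tgfb3 fell. Tgfb3, the isoform often linked to chondrogenesis, ranged from 209.9 to 242 CPM (median 225) in young and from 151 to 222 CPM (median 162) in aged libraries. Most aged libraries lay below the young range, and aged replicate 3, at 222 CPM, lay within it. The young mean was 226 ± 12.6 CPM (SD, n = 7) and the aged mean 172 ± 27.3 CPM (SD, n = 6), a difference of −0.39 in log2 (SE 0.087, adjusted p = 0.00235 by edgeR).

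Tgfb1, the most abundant isoform per length and a major product of platelets and bone matrix, was at 223 ± 9.71 CPM in the young (SD, n = 7) and at 247 ± 21.2 CPM in the aged group (SD, n = 6). Young libraries ranged from 213 to 243 CPM (median 222) and aged ones from 229 to 285 CPM (median 241), so the ages overlapped. Its difference of 0.15 in log2 (SE 0.060) did not pass (adjusted p = 0.055 by edgeR, 95% interval 0.020 to 0.28). It was called when young replicate 2 or when either aged replicate 2 or 3 was left out (adjusted p = 0.0382, 0.043 and 0.0413 by edgeR). Summed megakaryocyte and platelet markers ranged from 36.0 to 87.3 CPM in young and from 54.4 to 492 CPM in aged libraries, and their part in the level of Tgfb1 was not tested.

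Tgfb2, the isoform that depends most on betaglycan for receptor binding, ranged from 82.6 to 142 CPM (median 113) in young and from 101.5 to 166 CPM (median 131) in aged libraries. The groups overlapped over most of their range. Its difference of 0.27 in log2 (SE 0.12) did not pass (adjusted p = 0.0882 by edgeR, 95% interval 0.0050 to 0.53). It was called without young replicate 2 or aged replicate 6 (adjusted p = 0.0311 and 0.0307 by edgeR). Once the skeletal muscle marker score was a term of the fit, the log2 fold change was −0.00071 (adjusted p = 0.998 by edgeR).

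The receptors moved in both directions. Tgfbr3, the co-receptor betaglycan, ranged from 36.1 to 48.5 CPM (median 42.6) in young and from 64.9 to 84.8 CPM (median 76.1) in aged libraries. Every aged library was above every young one. The young mean was 42.2 ± 4.403 CPM (SD, n = 7) and the aged mean 74.8 ± 8.06 CPM (SD, n = 6), a 1.77-fold rise (0.82 in log2 with SE 0.082, adjusted p = 3.77e-06 by edgeR). Its log2 fold change was 0.56 given the muscle score and 1.14 given the blood cell score (mean log2 CPM of erythroid and neutrophil markers) as a term of the fit, and it stayed called in each of the 21 alternative fits.

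The 2 signalling receptors were lower. Tgfbr1, the type I kinase, ranged from 158 to 199 CPM (median 179) in young and from 119.9 to 177 CPM (median 135) in aged libraries. Aged replicate 4 was the highest aged library and lay inside the young range. The difference was −0.36 in log2 (SE 0.086, adjusted p = 0.00339 by edgeR). Tgfbr2, the type II kinase that binds ligand, ranged from 290.4 to 329.7 CPM (median 317) in young and from 251 to 305 CPM (median 268) in aged libraries. Its change was the smallest of the called ones, at −0.19 (SE 0.059, adjusted p = 0.0172 by edgeR).

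The 3 falls kept about their size and their call under 2 other scalings. DESeq2 with its size factors gave −0.39 for Tgfb3, −0.36 for Tgfbr1 and −0.19 for Tgfbr2 (DESeq2 adjusted p = 9.28e-05, 0.000289 and 0.00235). With limma-voom and quantile scaling they stood at −0.38, −0.35 and −0.19 (limma adjusted p = 0.00249, 0.00525 and 0.0144). The TMM factors ran from 0.903 to 0.957 in young and from 1.04 to 1.16 in aged libraries. Without these factors the median over all tested genes went from 0.014 to 0.24, and Tgfb3 stood at −0.16 (adjusted p = 0.101 by edgeR), Tgfbr1 at −0.14 (0.171) and Tgfbr2 at 0.040 (0.555). Relative to that median the 3 genes were at −0.40, −0.38 and −0.20, as under TMM. The falls are thus relative to the other genes of the same libraries. Given the blood cell score, Tgfb3 stood at 0.028 (adjusted p = 0.904 by edgeR), Tgfbr1 at −0.29 (0.306) and Tgfbr2 at 0.019 (0.925). That score did not overlap between the ages (3.89 to 5.48 in young, 5.70 to 8.09 in aged libraries). Age and blood cell content thus cannot be told apart in this fit. Given the muscle score, Tgfb3 stood at −0.60 and Tgfbr2 at −0.27, both called (adjusted p = 0.00158 and 0.037 by edgeR), and Tgfbr1 at −0.31, not called (adjusted p = 0.112 by edgeR).

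**Figure D2:**
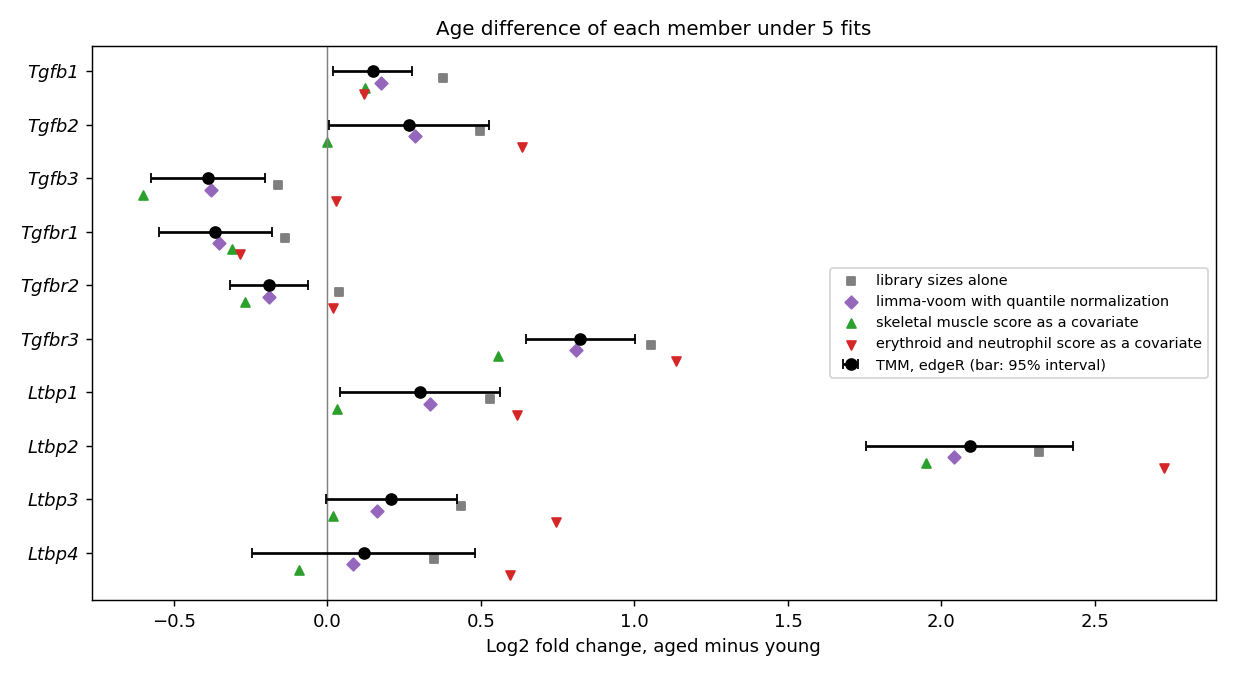
Log2 fold change (aged minus young) of each member under TMM scaling (black, with the 95% interval) and under 4 alternatives (coloured symbols, the erythroid and neutrophil score being the blood cell score). Ltbp2 and Tgfbr3 lie to the right of 0 in all 5 fits, while Tgfbr2 moves from −0.19 to 0.040 with library sizes alone and Tgfb3 from −0.39 to 0.028 given the blood cell score.

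Of the latency proteins Ltbp2 rose 4.26-fold. It ranged from 178 to 267 CPM (median 184) in young and from 611 to 1315 CPM (median 802) in aged libraries. The lowest aged library was thus above the highest young one, and aged replicate 3 stood above the other aged libraries. The young mean was 201 ± 31.7 CPM (SD, n = 7) and the aged mean 858 ± 242 CPM (SD, n = 6), a difference of 2.09 in log2 (SE 0.16, adjusted p = 4.33e-07 by edgeR). Of all tested genes, 97.6% had a smaller absolute log2 fold change. Over the 21 alternative fits the value ran from 1.92 to 2.73, and each of them called it higher.

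The LTBPs that carry latent TGF-beta differed less. Ltbp3, which binds latent TGF-beta in skeletal tissue, ranged from 368 to 428 CPM (median 382) in young and from 376 to 611 CPM (median 442) in aged libraries. Its difference of 0.21 in log2 (SE 0.099) did not pass (adjusted p = 0.0991 by edgeR), and the upper end of its 95% interval was 0.42. It was called without aged replicate 1 (0.26, edgeR adjusted p = 0.0472), and given the blood cell score (0.75, edgeR adjusted p = 0.00261), but stood at 0.018 given the muscle score (edgeR adjusted p = 0.947). Ltbp1 ranged from 108 to 202 CPM (median 152) in young and from 155 to 235 CPM (median 189) in aged libraries, with much overlap. Its difference of 0.30 in log2 (SE 0.12) did not pass (adjusted p = 0.0546 by edgeR, 95% interval 0.042 to 0.56). It was called without young replicate 2 or aged replicate 1 (adjusted p = 0.0131 and 0.0323 by edgeR), and stood at 0.032 with the muscle score (adjusted p = 0.91 by edgeR).

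Ltbp4, known from elastic fibre assembly, ranged from 184 to 266 CPM (median 248) in young and from 159.9 to 356 CPM (median 262) in aged libraries. The aged libraries spanned the whole young range and went beyond it at both ends. Its difference was 0.12 in log2 (SE 0.17, adjusted p = 0.591 by edgeR), with a 95% interval from −0.24 to 0.48. Without aged replicate 3 it was −0.0041 (adjusted p = 0.986 by edgeR).

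Shares within a group of family members do not depend on how libraries are scaled. They were taken from the deposited TPM and compared by a two-sided exact permutation test, adjusted over the 12 such values computed. Shares of one group sum to 100%, so a rise of one member lowers the others. Ltbp2 made up 13.5 to 19.4% of summed LTBP TPM in young (median 15.8) and 37.2 to 45.7% in aged libraries (median 40.8), with no overlap. The mean share went from 16.1 ± 2.15% (SD, n = 7) to 41.0 ± 3.03% (SD, n = 6; exact permutation p = 0.000583, the smallest the design allows, adjusted p = 0.0014). The age difference of Ltbp2 thus exceeded that of its relatives in these libraries. Ltbp3 went from 44.1 ± 1.98% to 31.1 ± 2.39% and Ltbp4 from 25.3 ± 2.64% to 16.6 ± 3.30%, with no overlap (exact permutation p = 0.000583 and adjusted p = 0.0014 for both). Ltbp1 went from 14.6 ± 2.29% to 11.2 ± 2.18% (exact permutation p = 0.0268, adjusted p = 0.0292). Without aged replicate 3 the difference in Ltbp1 was −2.61 percentage points (exact permutation, adjusted p = 0.0606).

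The make-up of the receptors and ligands shifted as well. Tgfbr3 made up 6.61 ± 0.581% of summed receptor TPM in the young group (SD, n = 7) but 12.95 ± 1.07% in the aged group (SD, n = 6), with no overlap (exact permutation p = 0.000583, adjusted p = 0.0014). Tgfbr1 went from 29.8 ± 2.101% to 25.5 ± 3.18% (exact permutation p = 0.0204, adjusted p = 0.0245). Tgfbr2 made up 63.6 ± 1.75% in young and 61.5 ± 2.96% in aged libraries, a difference that did not pass the test (exact permutation p = 0.157, adjusted p = 0.157). Among the ligands Tgfb3 went from 33.9 ± 1.25% to 26.0 ± 3.96% of summed TPM (exact permutation p = 0.00117, adjusted p = 0.00233). Aged replicate 3, at 32.8%, was inside the young range of 32.5 to 36.0%, and the other 5 aged libraries were below it. Tgfb1 rose from 55.6 ± 1.19% to 61.3 ± 3.59% (exact permutation p = 0.00408, adjusted p = 0.00699), and Tgfb2 from 10.5 ± 1.19% to 12.8 ± 1.46% (exact permutation p = 0.0122, adjusted p = 0.0163). The fall of Tgfb3 relative to the other ligands was thus present without any choice of library scaling.

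**Figure D3:**
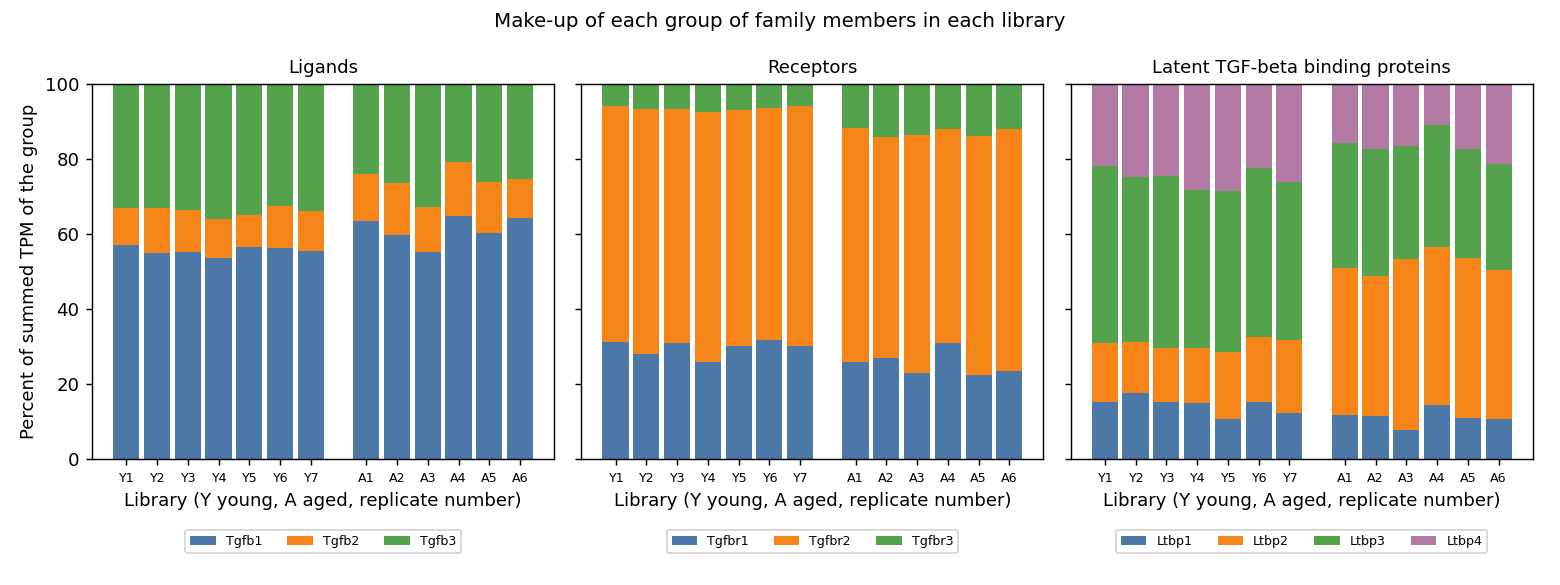
Percent of the summed TPM of the 3 ligands, 3 receptors and 4 LTBPs taken by each gene, as 1 stacked bar per library (Y1 to Y7 young, A1 to A6 aged). The orange Ltbp2 segment runs from 13.5 to 19.4% in young and from 37.2 to 45.7% in aged libraries, and the green Tgfbr3 segment from 5.89 to 7.49% and from 11.8 to 14.1%.

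The log2 ratio of summed LTBP to summed ligand TPM ranged from −0.23 to −0.029 in young and from 0.26 to 1.05 in aged libraries (exact permutation p = 0.000583, adjusted p = 0.0014). Every young library thus had less LTBP than ligand transcript and every aged library more. The LTBP sum includes Ltbp2, whose protein does not bind latent TGF-beta. Ltbp2 made up 13.5 to 19.4% of that sum in young and 37.2 to 45.7% in aged libraries. The ratio is therefore no measure of the LTBPs that carry latent TGF-beta, and it was not computed without Ltbp2. The log2 ratio of summed receptors to summed ligands ranged from −1.10 to −0.88 in young and from −1.20 to −1.01 in aged libraries. The ranges overlapped, and the difference in means of −0.13 passed the test (exact permutation p = 0.00524, adjusted p = 0.00787).

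The other genes of the pathway were counted in 5 lists that hold 88 genes outside the members, each of them tested. Of these 19 were called higher and 28 lower, at a median log2 fold change of −0.055. For all tested genes 24.7% were called higher and 21.6% lower. The counts of each list below are to be read beside these shares. Counts from another fit are to be read beside that fit's own totals over the 14067 tested genes. These were 7034 higher and 1253 lower with library sizes alone, and 1443 and 1195 given the blood cell score. DESeq2 gave 3644 and 3144, and quantile scaling 2583 and 4014. No list was tested as a whole, so whether a list differs from other genes was not tested.

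Genes of latency, anchoring and activation were lower more often than higher, 10 against 4 of 22, at a median of −0.18. Fbn2, a fibrillin of young microfibrils to which LTBPs can bind, fell from 31.6 ± 3.58 to 9.51 ± 3.04 CPM (−1.73 in log2 with SE 0.17, adjusted p = 2.9e-06 by edgeR). Fbn1, the main fibrillin, named after its value was seen, was at 177 ± 15.9 (young) and 154 ± 49.6 CPM (aged) and was not called (adjusted p = 0.305 by edgeR). Itgb6, a chain of an integrin that activates latent TGF-beta, rose from 1.297 ± 0.984 to 5.71 ± 1.97 CPM (2.14 in log2 with SE 0.46, adjusted p = 0.00196 by edgeR). This level is low, and given the muscle score Itgb6 stood at 0.91 (adjusted p = 0.137 by edgeR). The other 3 that rose, named after their values were seen, were Fn1 (fibronectin, 2.61-fold) and Lrrc32 and Nrros, which present latent TGF-beta on cell surfaces (1.87-fold and 1.56-fold). Itgav, another integrin chain of the list, fell from 309.8 ± 18.7 to 196.9 ± 17.5 CPM (−0.65 in log2, adjusted p = 4.24e-06 by edgeR). Also lower were Bmp1 (2.40-fold), Mmp9 (2.16-fold), Mmp14 and Adamtsl2 (each 1.82-fold), Mmp2, Plat, Itgb1 and Emilin1. These genes too were named after their values were seen. Macrophages express Nrros, and 3 of 6 macrophage markers were called higher and 2 lower (summed level 729.8 to 972 CPM in young, 755 to 1678 CPM in aged libraries). Their part in the rise of Nrros was not tested. With library sizes alone 7 of the list were higher and 6 lower, and given the blood cell score 2 were higher and 4 lower.

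Of 13 co-receptors and extracellular regulators 4 fell and 1 rose, at a median of −0.12. A2m, a protease inhibitor of plasma that also binds growth factors, fell from 12.6 ± 2.44 to 1.33 ± 1.03 CPM (−3.22 in log2 with SE 0.35, adjusted p = 1.02e-05 by edgeR). The other 3 that fell, named after their values were seen, were the pseudoreceptor Bambi, from 122 ± 11.6 to 53.9 ± 13.1 CPM, Nrep, from 133 ± 10.9 to 54.4 ± 10.3 CPM, and the co-receptor Cd109, from 384 ± 20.6 to 278 ± 44.6 CPM. Nrep was counted in this list although its protein is intracellular. Fmod (fibromodulin), a matrix proteoglycan that binds TGF-beta, rose from 5445 ± 656 to 8163 ± 1736 CPM (0.58 in log2 with SE 0.13, adjusted p = 0.00265 by edgeR). Given the muscle score, Fmod stood at 0.29 (adjusted p = 0.306 by edgeR).

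Intracellular transducers and feedback genes differed little in size. Of 21 genes 9 fell and 2 rose, at a median of −0.086 and within −0.74 to 0.596. Tgif2, a SMAD co-repressor, fell from 8.33 ± 1.14 to 4.99 ± 1.17 CPM (−0.74 in log2 with SE 0.15, adjusted p = 0.00111 by edgeR), and stood at −0.67 with SE 0.24 given the muscle score (adjusted p = 0.0522 by edgeR) and at −0.34 given the blood cell score (0.432). Usp15, a deubiquitinase that acts on the receptor complex, rose from 56.1 ± 3.29 to 84.8 ± 8.73 CPM (0.596 in log2 with SE 0.067, adjusted p = 1.13e-05 by edgeR; 0.0583 given the blood cell score). Smad7, the inhibitory SMAD that the pathway itself induces, named after its value was seen, was at 48.5 ± 2.20 (young) and 48.9 ± 6.58 CPM (aged) (adjusted p = 0.904, 95% interval of the difference in log2 −0.16 to 0.19 by edgeR). With library sizes alone, which raised the median of all tested genes to 0.24, this list had 11 genes higher and 2 lower. DESeq2 and quantile scaling each gave 2 higher and 9 lower.

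Among 22 genes known to respond to TGF-beta, 9 rose and 3 fell, at a median of 0.33. Many of them also respond to other signals. Cilp, a matrix protein of the cartilage intermediate layer, rose 8.61-fold, and Lox, which cross-links collagen, fell 3.14-fold. Others that rose, named after their values were seen, were Ccn2 (connective tissue growth factor), from 379 ± 91.1 to 1070 ± 406 CPM, and the oxidase Nox4, from 3.49 ± 0.458 to 8.63 ± 3.10 CPM. Besides Lox, Postn fell from 4966 ± 655 to 2672 ± 878 CPM and Snai2 from 33.6 ± 3.80 to 23.2 ± 2.24 CPM. Postn and Snai2 (adjusted p = 0.00163 and 0.000193 by edgeR) were likewise named after their values were seen. Tgfbi and the smooth muscle actin Acta2, also named after their values were seen, were not called (adjusted p = 0.969 and 0.854 by edgeR). Given the blood cell score, 3 of the list were called higher and 2 lower. In that fit the totals over all genes also dropped, to 1443 higher and 1195 lower.

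Other type I and type II receptors of the superfamily, which serve activins and bone morphogenetic proteins, numbered 10. Of these 3 were higher and 2 lower, at a median of 0.072. Both Bmpr1b and Acvr1c, named after their values were seen, rose from a level near 0, from 0.446 ± 0.209 to 1.64 ± 1.27 CPM and from 0.568 ± 0.205 to 0.917 ± 0.175 CPM. Bmpr2 had a difference of −0.32 in log2 (SE 0.073, adjusted p = 0.00297 by edgeR) and Acvr1b one of 0.22 (SE 0.076, adjusted p = 0.0265 by edgeR). Bmpr2 was at −0.086 with library sizes alone (adjusted p = 0.242 by edgeR). Acvr1b lost its call without young replicate 4 or aged replicate 1, 2 or 3 (adjusted p = 0.0521, 0.0651, 0.059 and 0.0696 by edgeR).

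**Figure D4:**
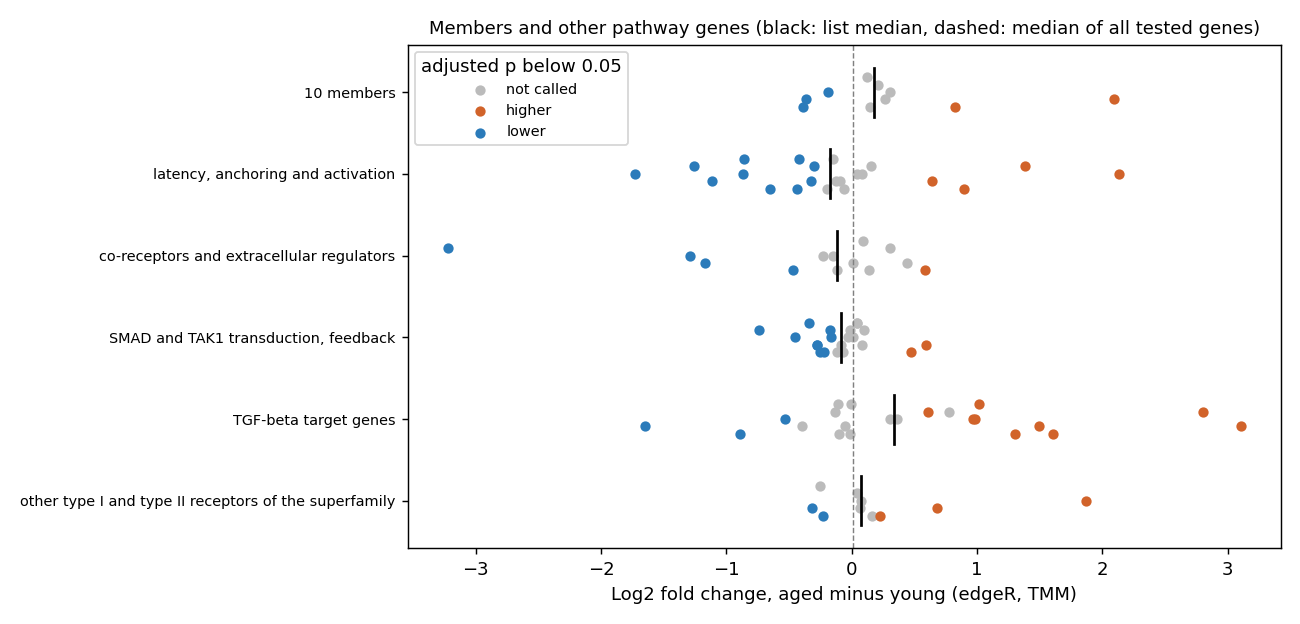
Log2 fold change (aged minus young) of the 10 members and of the genes in 5 pathway lists, with called genes in orange (higher) and blue (lower), the list median in black and the median of all tested genes dashed. List medians lie between −0.18 and 0.33.

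The genes whose profile over the 13 libraries was most like that of a member were sought for the 3 called members with the largest changes. The measure was the root mean squared difference of log2 CPM relative to the young mean, with no test. For Ltbp2 they were Slc20a1, a phosphate transporter (0.29), Gdf10, a ligand of the TGF-beta superfamily (0.297), and Sod3, the extracellular superoxide dismutase (0.31). Slc20a1, Gdf10 and Sod3 had log2 fold changes of 2.11, 1.88 and 1.82. For Tgfbr3 they were Irak2 (0.11), the matrix protein gene Vit (0.13) and Fbxo31 (0.13). For Tgfb3 they were Rbms3 (0.086), Dcaf4 (0.087) and Amotl1 (0.089).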

How the data were processed

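RNA was extracted with TRIzol and poly(A) RNA was taken with oligo(dT) beads for paired, strand-specific DNBSEQ reads, per the labels' protocols. The submitters' processing notes list, with no roles, HISAT2 2.1.0, RSEM 1.3.1, Bowtie2 2.3.4.3 and DESeq2 1.4.5, and build GRCm39. No annotation version is named in the sources used here. For every library the authors deposited expected counts (5.3% of values not whole, none of them a member's), under headers that call them read counts. The authors also deposited FPKM and TPM, which are scaled to gene length and depth, and group means, which were not used.

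Titles gave the age of each library. After rounding, the expected counts of all 13 libraries entered 1 edgeR 4.0.16 fit in R 4.3.3: filterByExpr (minimum count 10, minimum total 15), TMM, robust quasi-likelihood test, Benjamini-Hochberg adjustment across 14067 genes. TMM-normalised CPM are given as mean ± SD. Log2 CPM took a prior count of 2. An SE is the log2 difference over the square root of F. The muscle score and the blood cell score (erythroid and neutrophil) are means of the markers' log2 CPM. The muscle score overlapped between the ages (5.11 to 7.64 in young, 6.71 to 9.29 in aged libraries). The blood cell score did not, so every value given that score is an age difference beyond the range the ages share. Alternatives were library sizes alone, DESeq2 1.42.0, limma-voom (limma 3.58.1) with quantile scaling, no filter, limma on log2(FPKM + 1), a replicate block, either score as a covariate, and leaving out 1 library at a time. Shares used TPM, with counts, FPKM, the block and left-out libraries as alternatives.

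The members and lists were chosen with earlier results of these data known. Genes named from the lists are the largest called rise and fall in each above a mean FPKM of 1 at either age. Others are named as such. The fit was tested on simulated data with 50 genes changed at each of several sizes. It recovered 10% of 1.25-fold, 68% of 1.5-fold, 82% of 2-fold and 98% of 4-fold changes. Of its calls 2.27% were false. The simulation changed far fewer of its 13998 genes than the 46.2% called in the data. Its rates therefore need not hold for the members, of which Tgfbr2 was called at 1.14-fold. A member that did not pass may still differ by a small fold. Within an age no 2 libraries agreed within sampling noise (chi-square per degree of freedom at least 9.87). Plots were made in matplotlib 3.10.9.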

Additional observations from a re-analysis of the deposited data

Results flagged for a closer look

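Ltbp2 in young replicate 7 stood at 267 CPM, far above the other 6 young libraries, by Dixon's test at the 95% level. It was the 1 such case among 44 groups of values examined (10 member levels and 12 shares or ratios at each age), and chance gives about 1 in 20.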

How the results depend on the processing

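Ltbp2 and Tgfbr3 were called higher in each of the 21 alternative fits, Ltbp4 in none of them. Under TMM 2 members were called higher and 3 lower. With library sizes alone and with limma on log2(FPKM + 1), 6 members were higher and 0 lower, and Tgfbr2 stood at 0.040 and 0.027. DESeq2 and limma-voom with quantile scaling called 4 members higher, with Tgfb1 and Ltbp1 added. With the blood cell score 0 were lower, and Tgfb3 and Tgfbr2 stood at 0.028 and 0.019. With the muscle score Tgfb2 stood at −0.00071 and Ltbp4 at −0.093. Leaving out 1 library gave 2 to 5 members higher, with 5 without young replicate 2 and 4 without aged replicate 1, and Ltbp4 ran from −0.0041 to 0.22.

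The counts of members and lists under each alternative are to be read beside the totals over all genes in the same fit. Of all 14067 tested genes 3471 were called higher and 3033 lower under TMM. DESeq2 called 3644 higher and 3144 lower. With 1 library left out, 3149 to 3413 genes were higher and 2739 to 3100 lower. The counts higher and lower were 2583 and 4014 with quantile scaling, 7034 and 1253 with library sizes alone, and 6250 and 1361 with limma on FPKM. They were 2040 and 1792 with the muscle score, and 1443 and 1195 with the blood cell score. In the lists (higher and lower, in the order latency and activation, co-receptors and regulators, transduction, other receptors) library sizes alone gave 7 and 6, 5 higher, 11 and 2, and 6 and 0, while limma on FPKM gave 7 and 6, 4 higher, 9 and 2, and 5 and 0. The muscle score gave 6 lower, 0 higher, 1 and 5, and 1 higher. The blood cell score gave 2 and 4, 2 lower, 1 and 2, and 0 lower, and 3 target genes higher. DESeq2 gave 2 regulators higher and quantile scaling 0 other receptors higher. With 1 library left out, 1 to 2 regulators and 1 to 3 other receptors were higher. The cause of these shifts was not tested.

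Among other named genes, Acan (−0.056) stood at 0.17 with library sizes alone, 0.088 with quantile scaling, 0.16 with limma on FPKM, 0.088 with the blood cell score and −0.17 to 0.034 with 1 library left out. Sox9 (0.11) stood at −0.14 with the blood cell score and −0.021 to 0.17 with 1 library left out, and Amotl1 at 0.25 with that score.

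The replicate numbers were not treated as pairs: no label ties them to a shared animal or batch, and the correlation of deviations across genes was over 0.1 in 5 of 6 same-numbered pairs (up to 0.26) but −0.12 for number 4, while 2 of 6 young libraries correlated best with their own number. With the replicate block (numbers 1 to 6), 2 regulators were higher, Acan stood at 0.014, and Tgfbr2 stood at −0.18 (edgeR adjusted p = 0.06). A sign-flip test of blocked shares cannot pass after adjustment (smallest adjusted p = 0.0625). Under the block the differences were 5.68, 2.24 and −7.92 points for Tgfb1, Tgfb2 and Tgfb3, −4.19 and 6.22 for Tgfbr1 and Tgfbr3, −3.67, 25.5, −13.3 and −8.49 for Ltbp1 to Ltbp4, and 0.73 and −0.13 for the log2 ratios of LTBPs and receptors to ligands. The Ltbp1 share differed by −3.97 to −2.61 points with 1 library left out. Other shares kept their call under counts, FPKM and each left-out library.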

Other observations

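The highest aged value of each of the 10 members lay in 1 of 2 libraries. Aged replicate 3 was highest for 6 members (Tgfb3, Tgfbr2, Tgfbr3, Ltbp2, Ltbp3 and Ltbp4) and aged replicate 4 for the other 4 (Tgfb1, Tgfb2, Tgfbr1 and Ltbp1). Aged replicate 3 was also the lowest aged library for Tgfb1, and aged replicate 4 the lowest for Tgfb3 and Ltbp4. Aged replicate 3 had the lowest summed erythroid markers of the aged libraries (1653 CPM, where the others ranged up to 11879 CPM) and the highest summed muscle markers (16230 CPM). Aged replicate 4 had the highest summed chondrocyte markers of the aged libraries (25416 CPM). In young cartilage replicate 2 was highest for Tgfb1, Tgfb2, Tgfb3 and Ltbp1, and replicate 5 was lowest for Tgfb1, Tgfb2, Ltbp1 and Ltbp3. The part of these markers in the values was not tested.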
